A study of Mus musculus with 12 samples.

Results

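The genes described here are the 10 that make up the core of the MYC and MAX network in the mouse: Myc and Mycn, their shared partner Max, the MAX-binding repressors Mnt, Mxd1, Mxd3, Mxd4 and Mxi1, the MAX-like protein gene Mlx, and Mga. Each was taken by name, through the probe set with the highest mean among those annotated to that gene symbol alone. All 10 had exactly 1 such probe set, and they are 10 of 19309 genes tested. RNA came from the thymus of FVB/N mice. Normal thymocytes (3 arrays) were wild type, without tumor, at 24 dpn. Control tumors (5 arrays) were T-cell lymphomas induced by MYC in mice whose genotype is given as wild type, taken at the terminal stage. Dnmt3a-deficient tumors (4 arrays) were MYC-induced T-cell lymphomas, also terminal, from mice whose blood-forming cells had lost Dnmt3a, a gene for a de novo DNA methyltransferase. The labels name neither the promoter that drives MYC nor the Cre line, and they do not say whether the driving MYC is the mouse or another sequence, so the mouse Myc probe set is read here only as annotated. They also do not say that each array is a separate animal, and p-values then measure the spread between these samples. The normal mice differed from both tumor groups in MYC, in tumor state and in the stage at which they were taken, and these cannot be told apart.

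MYC proteins are basic helix-loop-helix leucine zipper factors that bind the E-box CACGTG only as a dimer with MAX, and they activate genes of growth, ribosome production and metabolism. MXD proteins, MXI1 and MNT compete for the same partner and the same sites, and recruit SIN3 with histone deacetylases to repress. MGA also dimerises with MAX and belongs to a variant Polycomb complex known as PRC1.6, while MLX pairs with MondoA (Mlxip) and ChREBP (Mlxipl) in a branch that senses sugar supply. In thymocytes Myc acts downstream of Notch and pre-T-cell receptor signals and drives the expansion of immature cells.

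Several of the network's own promoters carry the network's binding motif, and these sequences are shown because the motif is the one that MYC and MAX dimers bind; binding was not measured. Promoter sequences, from 250 bases before to 50 bases after an annotated start, were available from RefSeq (GRCm38.p6) for 9 of the 10 genes, in 11 windows. CACGTG, which reads the same on both strands, occurred in the windows of 4 members, Max, Mlx, Mnt and Mxd4, against 8.09% of the 27025 genes in the same table. The capitals below mark the motif in the 5′ to 3′ sequence of the gene's strand.
Max (chr12:76962246-76962278, minus strand, motif from 3 bases before the start and across it): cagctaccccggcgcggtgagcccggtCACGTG
Mlx (chr11:101087223-101087282, plus strand, motif 40 bases before the start): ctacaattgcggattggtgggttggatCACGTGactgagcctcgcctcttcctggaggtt
Mnt (chr11:74830774-74830833, plus strand, motif 123 bases before the start): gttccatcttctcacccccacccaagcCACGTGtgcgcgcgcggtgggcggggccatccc
Mxd4 (chr5:34187897-34187956, minus strand, motif 219 bases before the start): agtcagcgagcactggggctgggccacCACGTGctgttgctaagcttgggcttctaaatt
Mycn carries no CACGTG in its window. It held E2F-type letters instead: TTTGGCGC starting 183 and again 168 bases before the start, and TTTCGCGC on the other strand, overlapping the first. Of all 32851 windows with a sequence, 0.514% held TTTGGCGC and 0.323% held TTTCGCGC on either strand. The run with all 3 matches in capitals is given for this gene.
Mycn (chr12:12941970-12942046, minus strand): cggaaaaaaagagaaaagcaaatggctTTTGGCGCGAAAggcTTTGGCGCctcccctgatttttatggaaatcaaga
The 4 genes with CACGTG did not share a direction in the tumors. When Dnmt3a-deficient tumors were set against normal thymocytes, Mxd4 was lower, Max was higher, and Mlx and Mnt were not called, Mlx depending on the scaling.

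Levels are log2 values of each array as deposited, so a difference of 1 is a 2-fold change. Array medians were 6.40 to 6.58. Control tumors 1 and 2 shared a 75th percentile of 8.50 to 8.60 with the 4 Dnmt3a-deficient tumors, and the other 6 arrays had 8.13 to 8.30. Dnmt3a itself, the check of the labels, was 9.48 ± 0.15 (SD, n = 3) in normal thymocytes, 8.67 ± 0.53 (n = 5) in control tumors and 7.42 ± 0.20 (n = 4) in Dnmt3a-deficient tumors, with no overlap between the tumor groups (difference -1.25, adjusted p = 0.0317). No source used here gives where its probe set lies relative to the deleted part. The call between tumor groups was lost in 9 of 25 alternative settings. Of 11 T lineage markers, 5 fell in control tumors and 7 in Dnmt3a-deficient tumors, and the others were not called. These are 45.5% and 63.6%, against 11.3% and 19% of all genes. Cd3e was at 10.35 or above and Thy1 at 10.56 or above on all arrays, while Cd2 ranged down to 7.04 and Cd5 to 7.93 in Dnmt3a-deficient tumors against at least 11.52 and 11.33 in normal thymocytes, and Cd7 to 6.45 against at least 8.21. The mean level of the 11 T lineage markers was 10.62 to 10.76 in normal thymocytes, 9.78 to 10.05 in control tumors and 8.94 to 9.90 in Dnmt3a-deficient tumors. Among markers of other cells, the mean of 9 macrophage markers was 6.53 to 6.77 in normal thymocytes, 6.10 to 7.77 in control tumors and 6.83 to 7.71 in Dnmt3a-deficient tumors, and that of 8 adipocyte markers was 5.53 to 8.24 in control tumors, with a median of 5.57, and 5.64 to 5.81 in normal thymocytes. The mean of 11 neutrophil markers was 6.50 to 6.96 in normal thymocytes, 5.69 to 8.23 with a median of 6.09 in control tumors, and 5.42 to 6.12 in Dnmt3a-deficient tumors, below every normal sample. The means of 10 dendritic cell, 6 erythroid and 9 thymic epithelium markers were lower in all control tumors than in any normal sample, at most 6.57, 6.04 and 6.49 against at least 6.68, 6.05 and 6.68, and the erythroid mean also in all Dnmt3a-deficient tumors (at most 6.01). The part of these shifts in the results below was not tested, and in whole tissue fewer cells of a type cannot be told apart from less RNA per cell.

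Of the network genes, Myc, Mycn, Mxd1 and Mxd3 fell and Mga rose in both tumor groups, and Mxd4 fell and Max rose in Dnmt3a-deficient tumors. In control tumors 5 of the 10 members were called (limma, adjusted p under 0.05 over all genes), against 24.4% of all genes. Of these 1 was higher, against 13% of all genes, and 4 were lower, against 11.3%. In Dnmt3a-deficient tumors 7 of 10 were called, against 37.6% of all genes, 2 higher (18.7% of all genes) and 5 lower (19%). The median difference of the members from normal thymocytes was -0.67 in control tumors and -0.44 in Dnmt3a-deficient tumors, while the median over all genes was -0.08 and -0.10. Their median absolute difference was 0.99 and 0.93, against 0.30 and 0.40 over all genes. Both comparisons use the same 3 normal arrays. Groups did not overlap for 5 members in the first comparison (27.7% of all genes) and for 8 in the second (49.7%).

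**Figure D1:**
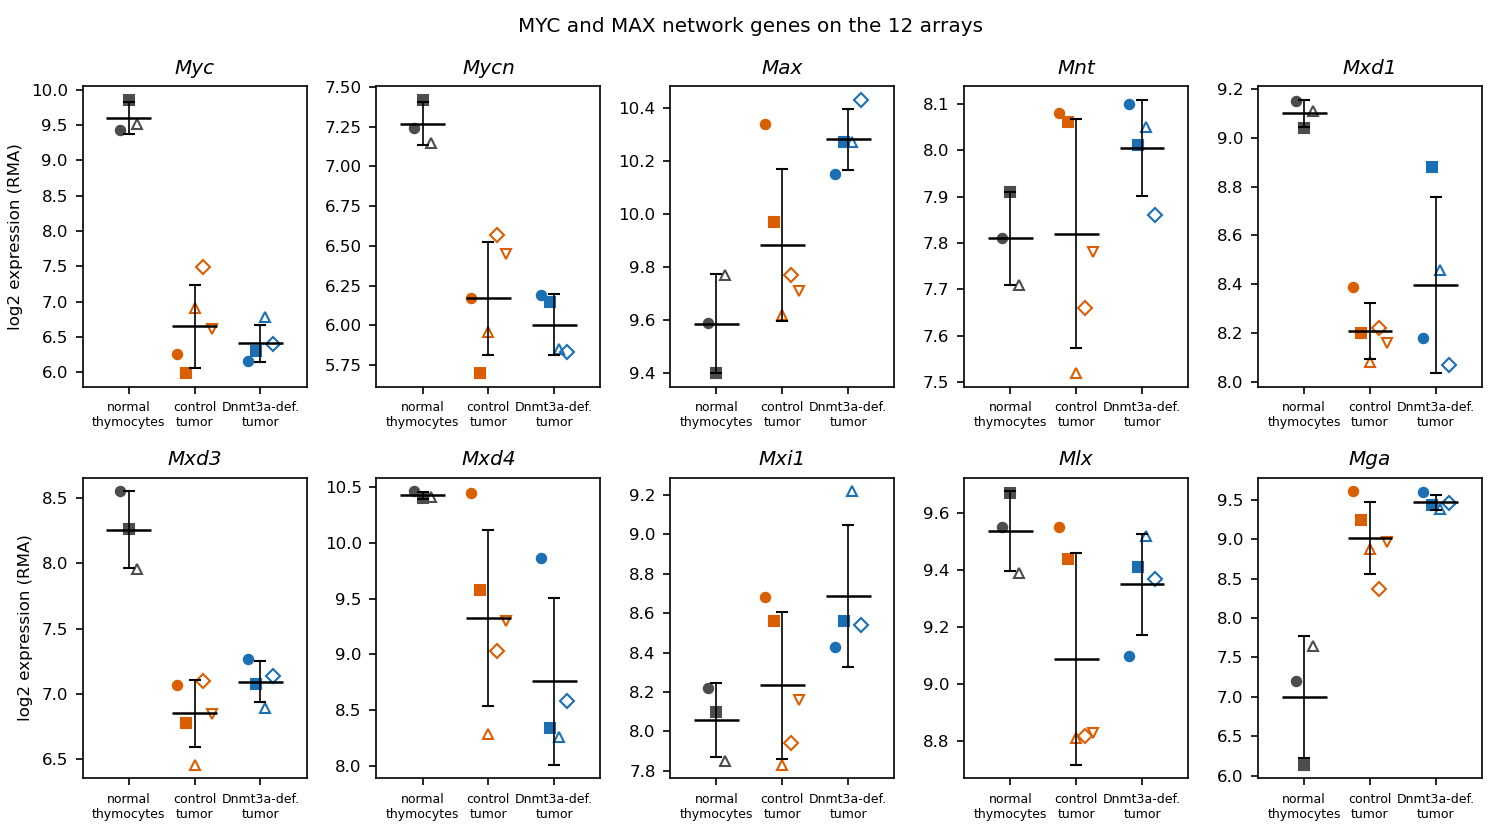
Log2 expression (y axis) of the 10 network genes on the 12 arrays, with 1 point per array, a line at the group mean and bars of 1 SD; replicates 1 and 2 are filled and the others open. Myc, Mycn, Mxd1 and Mxd3 lie lower in all 9 tumors than in any normal sample, Mga lies higher in all 9, and control tumors 1 and 2 lie above the other control tumors for Max, Mnt, Mxd4, Mxi1, Mlx and Mga.

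Myc showed the largest difference of the members. Its level was 9.43, 9.86 and 9.51 in the 3 normal samples, 6.26, 5.99, 6.91, 7.49 and 6.61 in control tumors 1 to 5, and 6.16, 6.31, 6.78 and 6.40 in Dnmt3a-deficient tumors 1 to 4. Every tumor lay below every normal sample, also control tumor 4, the highest of them. The 7.71-fold lower level in control tumors (difference -2.95, SE 0.28, adjusted p = 1.04e-05) exceeded in size those of 99.7% of all genes. In Dnmt3a-deficient tumors the level was 9.12-fold lower (difference -3.19, SE 0.293, adjusted p = 4.82e-06). The exact two-sided permutation test gave p = 0.0179 and 0.0286, the smallest that 5 against 3 and 4 against 3 samples allow. No source used here gives whether transcripts of the driving MYC reach this probe set.

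Mycn, the paralog best known from neural progenitor cells, moved the same way by less. It was 7.24, 7.42 and 7.15 in normal thymocytes, 6.17, 5.70, 5.96, 6.57 and 6.45 in control tumors, and 6.19, 6.15, 5.85 and 5.83 in Dnmt3a-deficient tumors. The groups did not overlap. The difference was -1.10 (SE 0.193, adjusted p = 0.000967) in control tumors and -1.27 (SE 0.202, adjusted p = 0.000316) in Dnmt3a-deficient tumors. Mycl, the third gene of the family, differed by -0.28 (adjusted p = 0.314) and -0.37 (adjusted p = 0.161), neither past the threshold. Mycn in tumors and Mycl on all arrays (5.84 to 6.69) lay around or below the array medians (6.40 to 6.58). A fall has less room to show there, so the sizes do not rank these genes against Myc.

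The gene next to Myc went the other way. Pvt1, a long noncoding RNA gene that is the next measured gene after Myc on chromosome 15 in RefSeq order, was 6.56, 6.68 and 6.03 in normal thymocytes. It was 7.70, 7.65, 8.32, 8.34 and 6.79 in control tumors and 7.78, 8.24, 7.35 and 8.16 in Dnmt3a-deficient tumors, again without overlap. It rose by 1.34 (SE 0.325, adjusted p = 0.00848) and by 1.45 (SE 0.339, adjusted p = 0.00464). The call in control tumors was lost without normal sample 3 (1.14, adjusted p = 0.0502) and held under the other 24 alternatives. The other measured neighbours, Lratd2, 9930014A18Rik and A1bg before Myc and Macroh2a3 and Gsdmc after Pvt1, were not called in any comparison, with differences between -0.72 and 0.07. Except for Lratd2, their group means were 4.19 to 5.42, below the array medians (6.40 to 6.58). Such levels leave little room for a fall like that of Myc, so these values do not show that the fall was confined to Myc.

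**Figure D2:**
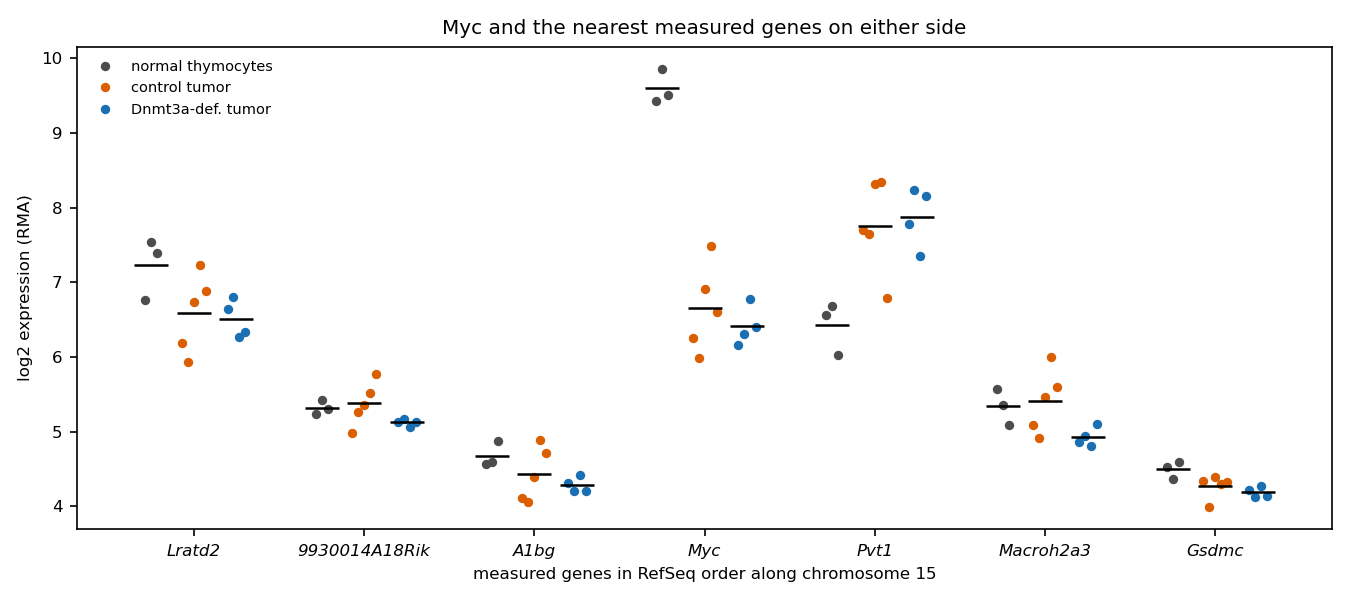
Log2 expression (y axis) of Myc and the nearest measured genes in RefSeq order along chromosome 15 (x axis), with 1 point per array and lines at group means. Myc lies lower in all tumors than in normal thymocytes, Pvt1 lies higher in all tumors, and the remaining neighbours overlap or differ little between groups.

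Max, the obligate partner of MYC, MXD and MGA proteins, was higher in Dnmt3a-deficient tumors. It was 9.59, 9.40 and 9.77 in normal thymocytes, 10.34, 9.97, 9.62, 9.77 and 9.71 in control tumors, and 10.15, 10.27, 10.27 and 10.43 in Dnmt3a-deficient tumors. Control tumors overlapped normal thymocytes (difference 0.29, SE 0.168, adjusted p = 0.233), and all Dnmt3a-deficient tumors lay above them. That increase was 1.62-fold (difference 0.69, SE 0.176, adjusted p = 0.00764). It was not called after centring on the 75th percentile (0.31, adjusted p = 0.0981) or cyclic loess (0.37, adjusted p = 0.0801). The 75th percentile of the arrays moves with this result, since it was higher in all Dnmt3a-deficient tumors than in normal thymocytes.

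Of the MXD repressors, 2 fell in both tumor groups. Mxd3, which unlike its relatives is known from cycling cells in S phase, was 8.55, 8.26 and 7.96 in normal thymocytes, 7.07, 6.78, 6.46, 7.10 and 6.85 in control tumors, and 7.27, 7.08, 6.89 and 7.14 in Dnmt3a-deficient tumors. It was 2.65-fold lower in control tumors (difference -1.41, SE 0.178, adjusted p = 8.63e-05) and 2.24-fold lower in Dnmt3a-deficient tumors (difference -1.16, SE 0.186, adjusted p = 0.000324). Mxd1, a repressor that is typically induced as cells leave the cycle and differentiate, was 9.15, 9.04 and 9.11 in normal thymocytes, a range of little width. It was 8.39, 8.20, 8.08, 8.22 and 8.16 in control tumors and 8.18, 8.88, 8.46 and 8.07 in Dnmt3a-deficient tumors, where tumor 2 came closest to normal. The differences were -0.89 (SE 0.169, adjusted p = 0.00175) and -0.70 (SE 0.177, adjusted p = 0.00732).

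Mxd4 was the member that varied most among tumors. Normal thymocytes were at 10.46, 10.40 and 10.41 (SD 0.03), control tumors at 10.44, 9.58, 8.29, 9.03 and 9.30 (SD 0.79), and Dnmt3a-deficient tumors at 9.86, 8.34, 8.26 and 8.58 (SD 0.75). Control tumor 1 was at the normal level and control tumor 3 more than 2 log2 units below it. The SD exceeded that of 94.8% of all genes within control tumors and of 97.6% within Dnmt3a-deficient tumors. Mxd4 fell in Dnmt3a-deficient tumors (difference -1.66, SE 0.442, adjusted p = 0.010). The difference in control tumors was -1.09 (SE 0.423, adjusted p = 0.0779). It was called without control tumor 1 (-1.37, adjusted p = 0.0162), without control tumors 1 and 2 (-1.55, adjusted p = 0.00881) and without Dnmt3a-deficient tumor 1 (-1.09, adjusted p = 0.0408), as it was with 75th percentile centring, cyclic loess and array weights (-1.33 to -1.25).

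The remaining MAX-binding repressors, Mxi1 and Mnt, did not pass the threshold in any comparison. Mxi1, whose protein acts like the MXD repressors, was 8.22, 8.10 and 7.85 in normal thymocytes, 8.68, 8.56, 7.83, 7.94 and 8.16 in control tumors, and 8.43, 8.56, 9.22 and 8.54 in Dnmt3a-deficient tumors. The Dnmt3a-deficient tumors lay above all normal samples, with a difference of 0.63 (SE 0.239) just short of the threshold (adjusted p = 0.0526); over 25 alternative settings, 11 called it. In control tumors the difference was 0.18 (adjusted p = 0.625), and its sign turned with 75th percentile centring (-0.04), quantile normalization (-0.02) and without control tumors 1 and 2 (-0.08). Mnt, the most broadly expressed of the MYC antagonists, stayed between 7.52 and 8.10 on all 12 arrays. Its differences from normal thymocytes were 0.01 (interval -0.31 to 0.34) and 0.19 (interval -0.15 to 0.53), and their sign also depended on the scaling, at -0.20 and -0.19 after 75th percentile centring.

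In the MLX branch Mlxip rose in Dnmt3a-deficient tumors, and whether Mlx was called lower depended on the scaling and on control tumor 1. Mlx was 9.55, 9.67 and 9.39 in normal thymocytes, 9.55, 9.44, 8.81, 8.82 and 8.83 in control tumors, and 9.10, 9.41, 9.52 and 9.37 in Dnmt3a-deficient tumors. Control tumors 3 to 5 lay together below every other array, and control tumors 1 and 2 at the normal level. The difference in control tumors was -0.45 (SE 0.196, adjusted p = 0.119), called without control tumor 1 (-0.56, adjusted p = 0.0413), without control tumors 1 and 2 (-0.72, adjusted p = 0.00295) and under 75th percentile centring, quantile normalization, cyclic loess and array weights (-0.66 to -0.54). In Dnmt3a-deficient tumors it was -0.19 (adjusted p = 0.503), and it was called lower with 75th percentile centring (-0.57, adjusted p = 0.0141), quantile normalization (-0.46, adjusted p = 0.0493) and cyclic loess (-0.50, adjusted p = 0.0337). Mlxip, the gene for MondoA, was 8.35, 7.85 and 8.21 in normal thymocytes, 9.30, 9.18, 8.16, 8.23 and 8.44 in control tumors and 9.52, 9.21, 9.53 and 9.20 in Dnmt3a-deficient tumors. It rose in the latter (difference 1.23, SE 0.271, adjusted p = 0.00325) and differed by 0.53 (adjusted p = 0.165) in control tumors. Mlxipl differed by 0.51 and 0.02, not called.

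Targets ascribed to MondoA and MLX did not move as a block. Of 17 measured, 5 rose and 2 fell in control tumors (29.4% and 11.8%), and 5 rose and 4 fell in Dnmt3a-deficient tumors (29.4% and 23.5%), with median differences of 0.13 and 0.20 against -0.08 and -0.10 over all genes. Of all genes, 13% rose and 11.3% fell in control tumors, and 18.7% rose and 19% fell in Dnmt3a-deficient tumors. Txnip, a brake on glucose uptake and the best known target, fell by 1.48 (adjusted p = 0.00373) and by 2.03 (adjusted p = 0.00036). The lipid synthesis enzymes Acaca (2.04 and 2.73) and Fasn (1.02 and 1.08) and the hexokinase gene Hk2 (1.13 and 1.11) rose in both. So did Krr1 (1.62 and 1.73) and Wwc1 (3.36 and 2.00), which had the largest difference of this list in control tumors. The call of Wwc1 in Dnmt3a-deficient tumors was lost in 4 of 25 alternatives. Arrdc4, a relative of Txnip, differed by -0.24 in control tumors, where it was not called, and fell by 0.52 in Dnmt3a-deficient tumors.

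Mga was the member that rose most. It was 7.20, 6.14 and 7.65 in normal thymocytes, 9.61, 9.25, 8.87, 8.37 and 8.97 in control tumors, and 9.60, 9.43, 9.38 and 9.46 in Dnmt3a-deficient tumors. No tumor fell within the normal range, which was itself wide (SD 0.77), while the 4 Dnmt3a-deficient tumors lay within a narrow band (SD 0.09). The increase was 4.04-fold in control tumors (difference 2.02, SE 0.307, adjusted p = 0.000345) and 5.54-fold in Dnmt3a-deficient tumors (difference 2.47, SE 0.321, adjusted p = 6.71e-05). With 1 array left out, the differences went as low as 1.59 and 2.04 and stayed called. Among genes described below, Dkc1 (7.10, 6.03 and 7.49), Nop58 (7.73, 6.45 and 7.97), Tfrc and Huwe1 had this order of normal samples, with sample 2 lowest. Pvt1 did not (6.56, 6.68 and 6.03). The rises of such genes are therefore not independent of each other. Whether the order comes from the arrays or from the mice was not tested.

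Genes of the PRC1.6 complex around MGA were higher in part, with Pcgf6 far ahead of the others. Of 14 measured, 6 rose and 1 fell in control tumors and 7 rose and 1 fell in Dnmt3a-deficient tumors, which is 42.9% and 50% higher against 13% and 18.7% of all genes. Median differences were 0.78 and 0.87 against -0.08 and -0.10 over all genes. Pcgf6, the subunit that defines this form of Polycomb complex, rose from 6.77 to 7.08 in normal thymocytes to 8.49 to 9.91 in control tumors and 9.78 to 10.12 in Dnmt3a-deficient tumors (differences 2.17 and 3.02, adjusted p = 0.000184 and 1.34e-05). Control tumors 1 and 2 (9.75 and 9.91) lay above control tumors 3 to 5 (8.78, 8.49 and 8.54). Tfdp1, the dimer partner of E2F factors, rose by 1.06 and 1.37, E2f6, the repressive E2F that binds DNA for the complex, by 0.91 in both, and the ubiquitin ligase gene Rnf2 by 0.92 and 1.19. Yaf2 rose by 0.86 (lost in 6 of 25 alternatives) and 1.24, and Hdac2 by 1.04 and 0.90. Tfdp2 rose in Dnmt3a-deficient tumors only (0.95, adjusted p = 0.0479), a call lost in 10 of 25 alternatives. Ring1, the paralog of Rnf2, fell by 0.52 and 0.41. L3mbtl2, another subunit, differed by -0.48 and -0.36 and was not called. Ring1 and L3mbtl2 were named after their values were seen.

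**Figure D3:**
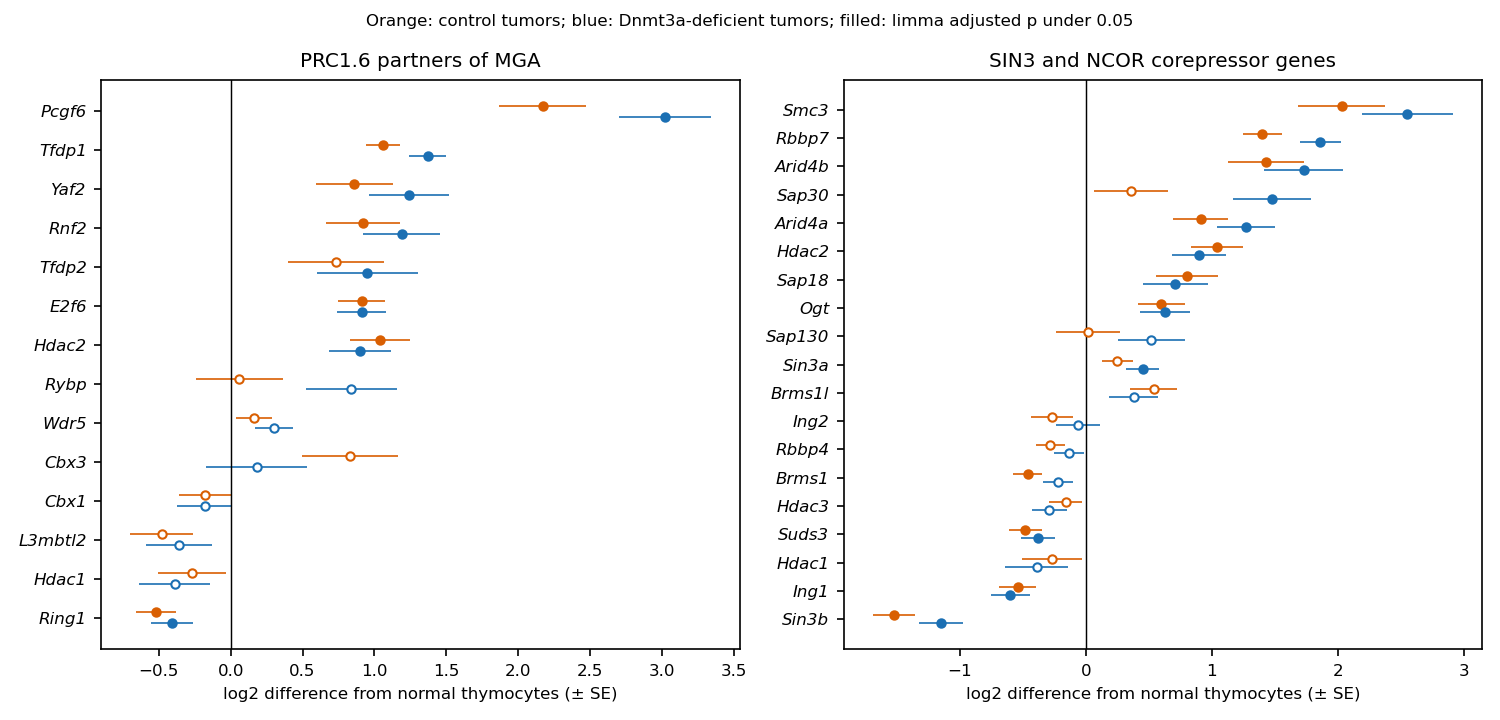
Log2 difference from normal thymocytes (x axis, with bars of 1 SE from limma) of PRC1.6 partner genes (left) and SIN3 and NCOR corepressor genes (right), in control tumors (orange) and Dnmt3a-deficient tumors (blue); filled points passed an adjusted p of 0.05. Pcgf6 and Smc3 show the largest increases, at 3.02 and 2.55 in Dnmt3a-deficient tumors, and Sin3b the largest decrease, at -1.52 in control tumors.

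Germline genes, which PRC1.6 is known to silence outside the germ line, were mostly not called. Of 34 measured, 2 rose in control tumors and the others were not called, and 4 rose and 2 fell in Dnmt3a-deficient tumors (median differences -0.10 and -0.19). The shares that rose, 5.88% and 11.8%, lay below those of all genes (13% and 18.7%). In Dnmt3a-deficient tumors 5.88% fell, against 19%, and the number that fell ranged from 0 to 22 over the alternative settings. Genes already silent in normal thymocytes can hardly fall further, so these shares do not measure silencing by PRC1.6. The 2 that rose in both were Smc1a (2.06 and 2.03), a cohesin subunit of all dividing cells, and Ythdc2 (1.90 and 2.61), an RNA helicase gene. Syce2, a synaptonemal complex gene, rose by 2.07 in Dnmt3a-deficient tumors (adjusted p = 0.000821) and Cpeb1 by 1.88 (adjusted p = 0.0253). Hormad2 fell by 0.87 (from 5.30 to 4.43) and Tuba3a by 0.89 (from 6.91 to 6.03) in the same tumors, Hormad2 from a level already below the array medians. The calls of Cpeb1 and Tuba3a were lost in 5 and 6 alternatives.

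The SIN3 scaffolds to which MXD proteins bind moved apart. Sin3b was 9.43 to 9.65 in normal thymocytes, 7.75 to 8.37 in control tumors and 8.14 to 8.58 in Dnmt3a-deficient tumors. It fell by 1.52 (adjusted p = 3.09e-05) and by 1.15 (adjusted p = 0.000239). Sin3a, named after its value was seen, rose by 0.45 in Dnmt3a-deficient tumors (adjusted p = 0.016) and differed by 0.25 in control tumors (adjusted p = 0.171). Over the 19 measured corepressor genes, 7 rose and 4 fell in control tumors (36.8% and 21.1%) and 9 rose and 3 fell in Dnmt3a-deficient tumors (47.4% and 15.8%). Over all genes these shares were 13% and 11.3%, then 18.7% and 19%. The histone-binding subunit gene Rbbp7 (1.40 and 1.86), Arid4b (1.43 and 1.73) and the cohesin gene Smc3 (2.03 and 2.55) rose in both, and Sap30, a SIN3 adaptor, in Dnmt3a-deficient tumors (1.48, adjusted p = 0.00227). Hdac2 is counted in this list and among the PRC1.6 partners.

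None of the 10 members passed the threshold between Dnmt3a-deficient and control tumors (limma), where 0.818% of all genes did (0.59% higher and 0.228% lower). By limma's unadjusted p, 2 of 10 were under 0.05, Max and Mxi1, against 20.2% of all genes, and no member separated the groups without overlap (6.15% of all genes). The median difference of the members was 0.22, and -0.01 over all genes. For Myc the interval of the difference was -0.80 to 0.31 and for Mycn it was -0.55 to 0.21. For Max the difference was 0.40 (interval 0.07 to 0.73, adjusted p = 0.179, exact permutation p = 0.0476), for Mxi1 0.46 (interval 0 to 0.91, adjusted p = 0.245) and for Mga 0.45 (interval -0.15 to 1.06). The widest interval was that of Mxd4, -1.40 to 0.27.

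**Figure D4:**
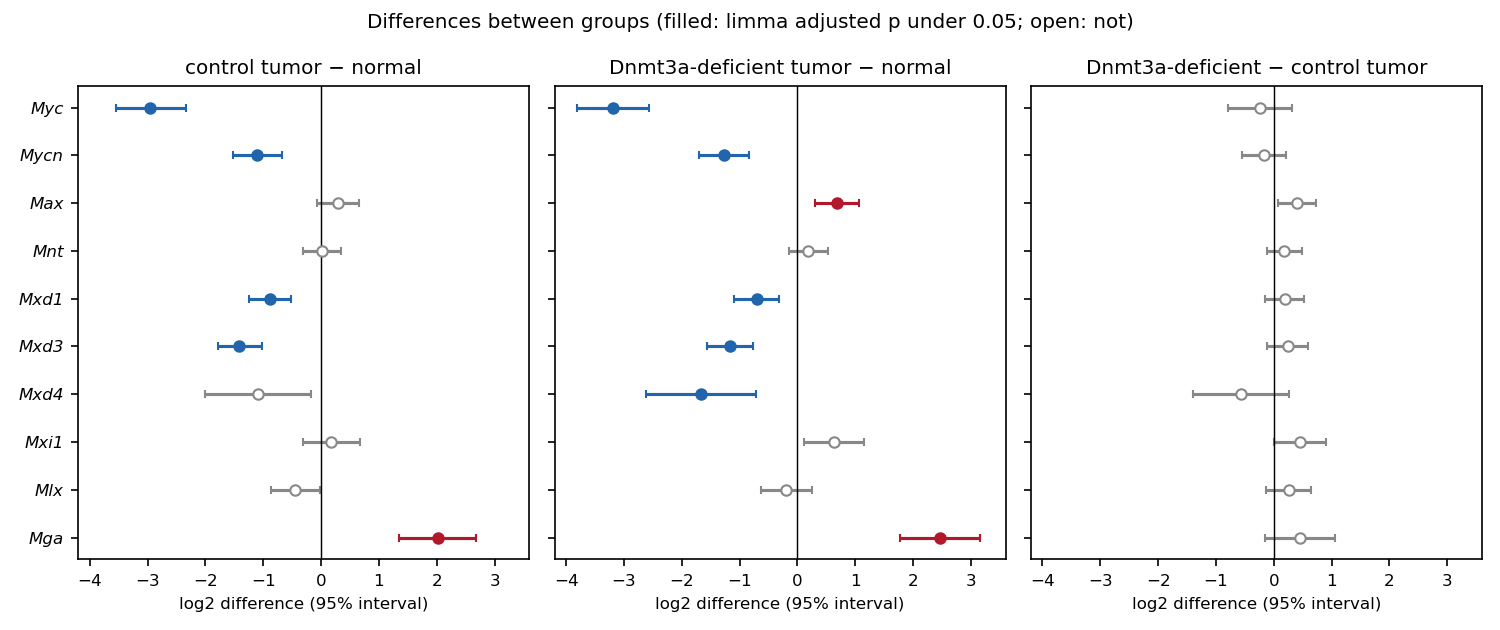
Log2 difference (x axis) of each network gene with its 95% interval from limma, in control tumors against normal thymocytes, Dnmt3a-deficient tumors against normal thymocytes, and Dnmt3a-deficient against control tumors. Filled points passed an adjusted p of 0.05: 5, 7 and 0 of the 10 genes, from Myc at -3.19 to Mga at 2.47.

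The 5 control tumors split by array for most of these genes. Control tumors 1 and 2 lay above control tumors 3 to 5 for 6 of 10 members, Max, Mnt, Mxd4, Mxi1, Mlx and Mga, as they did for 25.5% of all genes, and below them for Myc, as for 21.1%. For Mlx the means were 9.50 and 8.82, for Mxi1 8.62 and 7.97, and for Myc 6.13 and 7.01. These are also the arrays whose 75th percentile is that of the Dnmt3a-deficient tumors, and whether the split comes from the arrays or from the tumors was not tested. Without control tumors 1 and 2, the Dnmt3a-deficient tumors were higher for Max (0.58, adjusted p = 0.00743), Mxi1 (0.71, adjusted p = 0.0176) and Mlx (0.53, adjusted p = 0.0135). Without control tumor 1 alone, Max was called (0.51, adjusted p = 0.0473). Without control tumors 3 to 5 no member was called and the differences of Myc (0.29), Mycn (0.07), Mnt (-0.07) and Mlx (-0.14) had the opposite sign.

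**Figure D5:**
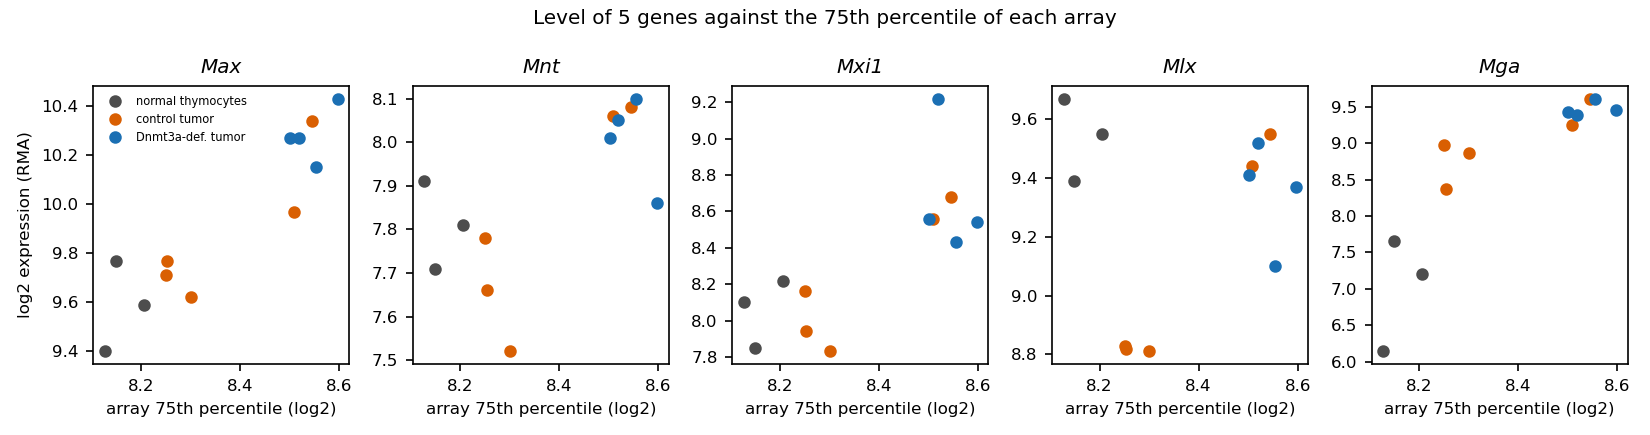
Log2 expression (y axis) of Max, Mnt, Mxi1, Mlx and Mga against the 75th percentile of all values on the same array (x axis), with 1 point per array coloured by group. Control tumors 1 and 2 sit with the Dnmt3a-deficient tumors at 8.50 to 8.60, and the other control tumors with the normal thymocytes at 8.13 to 8.30.

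Genes that MYC is known to activate or repress were measured beside the network. Of 51 activated targets, 36 rose in control tumors and 38 in Dnmt3a-deficient tumors, and the others were not called. These are 70.6% and 74.5%, against 13% and 18.7% of all genes. Median differences were 0.86 and 1.10, against -0.08 and -0.10 over all genes. Among those that rose were the snoRNP gene Dkc1 (3.24 and 3.14), the transferrin receptor gene Tfrc (3.20 and 2.73) and the nucleolar gene Nop58 (2.97 and 2.81). Their normal samples had the same order of levels as for Mga. Of 33 targets ascribed to repression, Mxi1 among them, 14 fell in control tumors and the others were not called. In Dnmt3a-deficient tumors 2 rose and 13 fell. The shares that fell were 42.4% and 39.4%, against 11.3% and 19% of all genes. In Dnmt3a-deficient tumors 6.06% rose, against 18.7%. Bcl6 (-2.58 and -3.17) and the antiproliferative gene Btg1 (-2.10 and -2.44) fell most in Dnmt3a-deficient tumors. Ccnd1, also on this list, rose there by 2.05 (adjusted p = 0.0145). Between the tumor groups, Nop16 (0.70, adjusted p = 0.0414), Gadd45b (1.80, adjusted p = 0.0144) and Itga6 (1.18, adjusted p = 0.0477) were higher in Dnmt3a-deficient tumors. The calls for Nop16 and Itga6 were lost in 16 and 15 of 25 alternatives.

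Of 40 measured genes that act on Myc transcription or translation, 5 rose and 9 fell in control tumors and 8 rose and 10 fell in Dnmt3a-deficient tumors. The shares that rose, 12.5% and 20%, were near those of all genes (13% and 18.7%), and 22.5% and 25% fell, against 11.3% and 19%. Notch1, whose cleaved form drives Myc in immature thymocytes, was 10.58 to 10.60 in normal thymocytes, 7.69 to 8.70 in control tumors and 8.64 to 9.45 in Dnmt3a-deficient tumors. It fell by 2.44 (adjusted p = 8.33e-06) and by 1.46 (adjusted p = 0.000355). Notch3 fell by 1.65 and 1.78, and Lef1, a nuclear partner of beta-catenin, by 1.17 and 2.60, the former lost in 9 of 25 alternatives. E2f3 rose by 1.01 and 1.52. Between the tumor groups Notch1 was higher (0.98, adjusted p = 0.0477) and Gata3, a T lineage factor, lower (-1.08, adjusted p = 0.0197) in Dnmt3a-deficient tumors; 16 and 8 of 25 alternatives lost these calls.

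Of 34 genes that act on the stability of MYC protein, 7 rose and 7 fell in control tumors (20.6% each, against 13% and 11.3% of all genes) and 9 rose and 9 fell in Dnmt3a-deficient tumors (26.5% each, against 18.7% and 19%). The ubiquitin ligase gene Huwe1 (1.75 and 2.14), the deubiquitinase genes Usp28 (0.98 and 1.46) and Usp37 (1.12 and 1.49) and Cip2a, an inhibitor of the phosphatase that destabilises MYC (1.80 and 1.84), rose in both. The kinase gene Pim1 (-1.10 and -1.30) and Trpc4ap (-1.33 and -1.06) fell in both. Skp2, an F-box gene, rose in Dnmt3a-deficient tumors (1.51, adjusted p = 0.00461) and differed by 0.46 in control tumors.

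Of 30 MYC coactivator genes, 6 rose and 4 fell in control tumors (20% and 13.3%, near the 13% and 11.3% of all genes). In Dnmt3a-deficient tumors 11 rose and 1 fell (36.7% and 3.33%, against 18.7% and 19%), and the lower count reached 12 under an alternative setting. The topoisomerase gene Top1 (2.08 and 2.36), the acetyltransferase gene Kat2a (0.89 and 1.63) and Cdc73 of the PAF1 elongation complex (0.99 and 0.97) rose in both. Top2a rose by 1.84 in both, but averaged over its probe sets it differed by 0.26 (adjusted p = 0.508) and 0.12 (adjusted p = 0.761). Of 11 genes with which MYC represses, 2 fell in control tumors and the others were not called, and 1 rose and 2 fell in Dnmt3a-deficient tumors. The share that fell was 18.2% in each, against 11.3% and 19% of all genes, and 9.09% rose in Dnmt3a-deficient tumors, against 18.7%. Zbtb17, the gene for MIZ1, fell by 0.48 in control tumors (adjusted p = 0.0487), and Sp1 rose by 0.84 in Dnmt3a-deficient tumors (adjusted p = 0.0278). These calls were lost in 14 and 8 of 25 alternatives. The other called gene of this list in control tumors was Dnmt3a, whose call there was lost in 10 of 25. The 2 that fell in Dnmt3a-deficient tumors were Trim28 (-0.51, adjusted p = 0.0264, lost in 6 of 25) and Dnmt3a (-2.06). Dnmt3a is the gene lost in those tumors, so its place in that share was set by the design.

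Other helix-loop-helix factors that bind CACGTG or related sites were counted in a list of 18 with Mlx and Pvt1 in it. Of these, 2 rose and 5 fell in control tumors, and 4 rose and 3 fell in Dnmt3a-deficient tumors (11.1% and 27.8%, then 22.2% and 16.7%). The shares of all genes were 13% and 11.3%, then 18.7% and 19%. Pvt1, a noncoding RNA gene and not such a factor, was among the 2 that rose in control tumors and the 4 that rose in Dnmt3a-deficient tumors. The circadian pair moved apart, with Clock higher (1.79 and 2.64, adjusted p = 0.00124 and 6.26e-05) and its partner Arntl lower (-1.42 and -2.09, adjusted p = 0.0208 and 0.00184); the call of Arntl in control tumors was lost in 5 of 25 alternatives. Usf1, a ubiquitous E-box factor, fell by 1.14 and 1.06.

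The genes whose pattern was most like that of Myc over the 12 arrays were Bach2 (Pearson r = 0.985), Dtx1 (0.976), Ssna1 (0.974), Aldh1b1 (0.973) and Rbm42 (0.972), among 16898 genes compared. The most opposed were Ryk (-0.988), Uprt (-0.984), Guf1, Rars2 and Nedd4 (all -0.983). The arrays form separate normal and tumor clusters for Myc, so these values mostly restate that step. Over the 9 tumors alone, where levels span 5.99 to 7.49, the nearest genes were others, H2ac8 (0.972) and Gldn (0.963) the closest and Defb7 (-0.969) the most opposed. Tumor levels of Myc lay around the array medians (6.40 to 6.58). They also followed the split of control tumors 1 and 2 from control tumors 3 to 5 (means 6.13 and 7.01). The part of level and split in these r values was not tested. For Mxd4, Znrf1 and Fam53b were among the 3 closest both over all arrays (0.938 and 0.964) and over the 9 tumors (0.980 and 0.950). For Mxd3 the closest over all arrays were Carns1 (0.972), Dctn1 (0.965) and Ppp1r13b (0.961), none of which was among the 3 closest over the tumors.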

How the data were processed

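Total RNA was measured on 12 single-channel arrays (3, 5 and 4 per group). The authors deposited log2 values for each probe set. Per the submitters' processing notes these come from Affymetrix Expression Console and RMA; no version is given in the sources used here. RMA corrects background, normalizes between arrays and summarises probes, so total RNA per cell is not measured. No further scaling or filter was applied.

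Of 23858 probe sets, 20870 had 1 gene symbol, 1453 several and 1535 none. Where a gene had several, the highest mean was kept, which left 19309 genes. limma 3.58.1 in R 4.3.3 fitted 3 group means to all arrays (9 residual degrees of freedom), two-sided, with Benjamini-Hochberg adjustment over all genes of a contrast; every adjusted p is limma's. Single values were also compared by exact two-sided permutation. In simulated data 200 of 19309 genes were changed in 1 group and the rest left unchanged. Log2 changes of 1 were called in 61.2%, 59.7% and 77.6% of cases (control against normal, deficient against normal, deficient against control). Changes of 0.5 were called in 10.4%, 1.49% and 20.9%. In the data itself 24.4% and 37.6% of all genes were called against normal thymocytes. The simulated shares therefore do not give the sensitivity of those 2 comparisons.

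The members and lists were chosen with earlier results of these data known. Of 325 list entries, 301 matched a tested gene. The rule for named genes takes all members, up to 6 called genes per list and comparison with the largest difference, and the genes most like Myc, Mxd3 and Mxd4 by Pearson r; the text prints part of these. Alternatives covered scaling, a dim-gene filter, averaged probe sets, 2-group fits, array weights, shrinkage, a replicate block and arrays left out.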

Additional observations from a re-analysis of the deposited data

Results flagged for a closer look

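Mxi1 in Dnmt3a-deficient tumor 3 stood apart from the other tumors of its group, at 9.22 against 8.43 to 8.56. Chance flags about 1 in 20 groups, and 20 groups of 4 or 5 tumors were looked at here.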

How the results depend on the processing

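Over 25 alternatives, 12 of which leave out 1 array, 15 of 30 member results kept their direction and their side of the threshold throughout. Among these were the calls of Myc, Mycn, Mxd1, Mxd3 and Mga in both comparisons with normal thymocytes and of Mxd4 in Dnmt3a-deficient tumors (Mycn was dropped by the filter on dim genes). Members called ranged from 4 to 7 in control tumors and 7 to 8 in Dnmt3a-deficient tumors, and with 1 array left out from 5 to 7 and 7 to 8. Between the tumor groups, 0 members were called, 1 with array weights (Max, 0.50, adjusted p = 0.0261), 0 to 1 with 1 array left out and 3 without control tumors 1 and 2. The signs of small differences turned. For Mnt in control tumors they were -0.20 with 75th percentile centring and with quantile normalization, -0.04 with cyclic loess and without normal sample 3, -0.07 with array weights, -0.05 without control tumor 1 or 2 (0.09 without control tumor 3) and -0.16 without tumors 1 and 2. For Mnt in Dnmt3a-deficient tumors they were -0.19, -0.19 and 0 under the 3 scalings, and for Mxi1 in control tumors -0.04 and -0.02 under the first and second and -0.08 without control tumors 1 and 2. Between tumor groups, Myc (0.29), Mycn (0.07), Mnt (-0.07) and Mlx (-0.14) turned without control tumors 3 to 5, and Myc (0.12) without control tumors 3 and 4, a choice made after neutrophil markers were seen. The cause was not tested. Centring on the 75th percentile moved the median of all genes to -0.29, -0.48 and -0.18 in the 3 comparisons, from -0.08, -0.10 and -0.01. In Dnmt3a-deficient tumors against normal thymocytes, list counts moved most on the lower side: germline genes from 2 to between 0 and 22, coactivators from 1 to between 1 and 12, regulators of Myc from 10 to between 7 and 21 and PRC1.6 partners from 1 to between 0 and 4. On the higher side PRC1.6 partners ranged from 4 to 9, SIN3 and NCOR genes from 5 to 10 and activated targets from 32 to 41. The replicate block left the counts at 5, 7 and 0. Of 10 pairs of samples of the same number, 1 deviated together at r over 0.1, control tumor 1 and Dnmt3a-deficient tumor 1 (r = 0.338). The lowest r was -0.134. The numbers were not taken to pair samples. The number of arrays limits precision.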
